A study of Bos grunniens with 6 samples.

Results

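miR-192, miR-215 and miR-194 are small RNAs best known from liver, gut and kidney epithelium, and they were followed here in cells of the yak hair follicle. Entries were chosen by name: every row of the deposited table whose cattle (bta) name, without its arm, is miR-192, miR-215, miR-194 or miR-194b. This gave 5 entries of 2853, namely bta-miR-192, bta-miR-215, bta-miR-194, bta-miR-194b and bta-miR-194b-3p, written below without the prefix. The choice was made with their values known, because miR-192 and miR-215 differ between the cell types in opposite directions. Their levels are therefore given as a description, with no test. The study compared 3 libraries of cultured dermal papilla cells, which are mesenchymal and sit at the base of the follicle, with 3 of cultured hair matrix cells, the epithelial cells that form the hair shaft. Both came from skin of yak (Bos grunniens) labelled WT and were grown in the same DMEM/F12 medium with serum, IGF1 and EGF. The labels number biological replicates but name no animals or cultures, so any spread is that between these libraries.

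A miRNA finds its targets mainly through its seed, bases 2 to 8 of the mature strand. miR-192 and miR-215 have the same seed and form one family, whereas miR-194 has another. In human, each of miR-192 and miR-215 lies in a cluster with its own copy of a miR-194 hairpin, and mature miR-194 can come from either copy. In human cells these clusters are known as targets of p53, and miR-192 is known to repress ZEB2, a transcription factor of mesenchymal cells. Positions in the yak genome were not used here, so the entries are identified by name and sequence.

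The mature sequences, as deposited and written 5′ to 3′ in DNA letters, show what the family shares, with the seed in capitals:
miR-192: cTGACCTAtgaattgacagccag
miR-215: aTGACCTAtgaattgacagaca
miR-194: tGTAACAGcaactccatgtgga
Over 22 aligned bases miR-192 and miR-215 were identical at 20. Counted from the 5′ end, the differences from miR-192 to miR-215 were C1A and C20A. Bases 2 to 19 were a shared run of 18 bases, so a read that ends before base 20 can be assigned by base 1 only. How the authors divided such reads is not given in the sources used here. Apart from the 5 entries, 0 of the table's entries carried either seed at bases 2 to 8, and 0 shared 12 or more bases in a row with a member on either strand.

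The miR-194b entries are related to miR-194 in another way, shown here with the bases complementary to another of these sequences in capitals:
miR-194: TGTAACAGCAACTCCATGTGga
miR-194b: CACATGGAGTTGCTGTTACA
miR-194b-3p: ACATGGAGTTGCTGTTACAatcg
All 20 bases of miR-194b were the reverse complement of bases 1 to 20 of miR-194. The first 19 bases of miR-194b-3p were the reverse complement of bases 1 to 19 of miR-194. The miR-194b entries overlap each other by 19 bases, from base 2 of miR-194b. Their seeds, ACATGGA and CATGGAG, are neither that of miR-194 nor the same as each other. Whether the authors' counting used the strand is not given. Without strand, reads of miR-194 and of the miR-194b entries that lie within the complementary bases cannot be told apart. Nor can reads common to both miR-194b entries.

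Levels are given in RPM, an entry's reads scaled to a fixed total per library. The totals were 23904796 to 24693655 reads, and listed entries held 71.7% to 73.5% of them. In each library 3 reads correspond to 0.121 to 0.125 RPM. Marker miRNAs were checked against the labelled cell types. Summed over 6 epithelial markers (the miR-200 family and miR-205), dermal papilla libraries held 82.9 to 108 RPM and hair matrix libraries 22064 to 22261 RPM. Summed over the 5 mesenchymal entries of miR-143, miR-145, miR-199a and miR-214, the ranges were 84688 to 87633 RPM in dermal papilla libraries, against 1159 to 1367 RPM in hair matrix libraries. The 4 blood entries (miR-451, miR-223 and miR-142) summed to 17.2 to 19.5 RPM in dermal papilla libraries, against 7.53 to 10.9 RPM in hair matrix libraries, and miR-142-3p had no read in dermal papilla libraries. The 3 entries of pancreatic miR-216a, miR-216b and miR-217 summed to 0.209 to 0.837 RPM in dermal papilla libraries, against 1.21 to 1.39 RPM in hair matrix libraries.

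bta-miR-192 was the most abundant member in every library. It was at 195, 190.2 and 209 RPM in dermal papilla libraries, against 341, 334 and 310 RPM in hair matrix libraries. Each hair matrix library was above each dermal papilla library. The means were 198 ± 10.02 RPM in dermal papilla cells, against 328 ± 16.6 RPM in hair matrix cells (SD, n = 3 each), 1.66-fold higher in hair matrix cells. Taken on log2(RPM + 1) values, a scale that understates changes of low entries, the difference of dermal papilla minus hair matrix was -0.73 ± 0.059 (SE). By mean level miR-192 ranked 99 of 2853 entries in dermal papilla cells, against 74 in hair matrix cells.

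bta-miR-215, which carries the same seed, differed in the other direction and was far lower. It was at 12.1, 9.73 and 12.5 RPM in dermal papilla libraries, against 4.13, 3.72 and 4.79 RPM in hair matrix libraries. Here each dermal papilla library was above each hair matrix library. The reads behind these values were 289, 233 and 304 in dermal papilla libraries and 102, 91 and 115 in hair matrix libraries. The exact Poisson 95% interval, which covers counting error only, was at lowest 8.52 RPM in a dermal papilla library and at highest 5.75 RPM in a hair matrix library. The means were 11.5 ± 1.51 RPM in dermal papilla cells, against 4.21 ± 0.541 RPM in hair matrix cells (SD, n = 3 each), 2.72-fold higher in dermal papilla cells, and the log2 difference was 1.25 ± 0.14 (SE).

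bta-miR-194, the partner of both in the human clusters, differed in the direction of miR-192. It was at 36.4, 32.6 and 34.6 RPM in dermal papilla libraries, against 53.7, 52.2 and 49.1 RPM in hair matrix libraries. Each hair matrix library was again above each dermal papilla library. Means were 34.5 ± 1.93 RPM in dermal papilla cells, against 51.7 ± 2.37 RPM in hair matrix cells (SD, n = 3 each), 1.5-fold higher in hair matrix cells, with a log2 difference of -0.57 ± 0.059 (SE). In bulk libraries such as these, fewer cells with a miRNA and less of it per cell cannot be told apart.

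**Figure D1:**
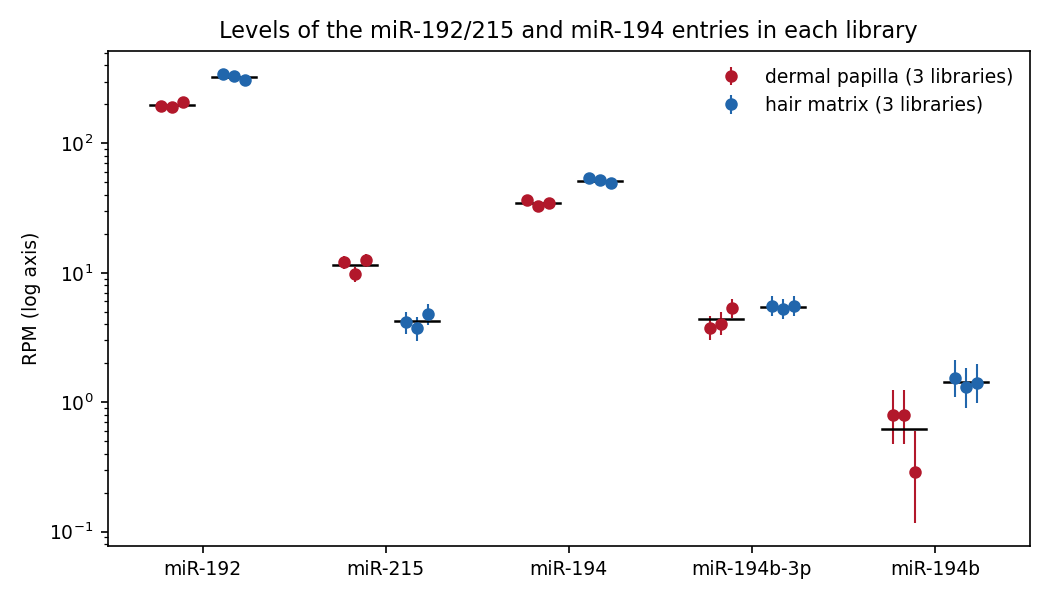
Level of each member entry (x axis) in RPM on a log axis, with dermal papilla libraries (red) left of hair matrix libraries (blue); points are libraries, bars their exact Poisson 95% intervals and black lines the means. miR-192, miR-194 and miR-194b are higher in hair matrix libraries, miR-215 is higher in dermal papilla libraries (9.73 to 12.5 against 3.72 to 4.79 RPM), and the libraries overlap for miR-194b-3p.

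Both miR-194b entries were low, and miR-194b was the lowest member in every library. It was at 0.795, 0.794 and 0.289 RPM in dermal papilla libraries, from 19, 19 and 7 reads, against 1.54, 1.31 and 1.42 RPM in hair matrix libraries, from 38, 32 and 34 reads. It reached 1 RPM in hair matrix libraries only. miR-194b-3p was at 3.76, 4.05 and 5.32 RPM in dermal papilla libraries, against 5.55, 5.27 and 5.54 RPM in hair matrix libraries. Dermal papilla replicate 3 was above hair matrix replicate 2, so the libraries overlapped. That replicate was also the lowest for miR-194b and the highest dermal papilla library for miR-194b-3p. Without it the libraries of miR-194b-3p did not overlap and its log2 difference was -0.39. Summed over both overlapping entries, the level was 4.56, 4.85 and 5.61 RPM in dermal papilla libraries, against 7.09, 6.58 and 6.96 RPM in hair matrix libraries, and the libraries did not overlap. By mean RPM the hair matrix level was 2.27 times the dermal papilla level for miR-194b and 1.25 times it for miR-194b-3p. On log2(RPM + 1) values, where the added 1 exceeds the level of miR-194b in dermal papilla libraries, the differences were -0.59 ± 0.16 (SE) for miR-194b, -0.27 ± 0.13 (SE) for miR-194b-3p and -0.39 ± 0.079 (SE) for their sum. On recovered reads, without an added 1, the log2 difference of miR-194b was -1.21 with edgeR and -1.12 with DESeq2.

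The order of the mean levels was the same in both cell types from the top, miR-192 then miR-194, and miR-194b was last in both. Between them, miR-215 was above miR-194b-3p in every dermal papilla library and below it in every hair matrix library. The lowest value of miR-215 in a dermal papilla library was 9.73 RPM and the highest of miR-194b-3p there was 5.32 RPM. The highest value of miR-215 in a hair matrix library was 4.79 RPM and the lowest of miR-194b-3p there was 5.27 RPM.

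The spread of replicates was above that from counting in both cell types for miR-192, miR-215 and miR-194. For the miR-194b entries it was so in dermal papilla libraries only. With 3 libraries per cell type these coefficients are rough. The coefficient of variation of miR-192 was 5.05% in dermal papilla and 5.04% in hair matrix libraries, where counting alone gives 1.45% and 1.12% for dermal papilla and hair matrix libraries. For miR-215 it was 13.2% in dermal papilla and 12.9% in hair matrix libraries, against 6.03% and 9.87% from counting. For miR-194 it was 5.58% in dermal papilla and 4.60% in hair matrix libraries, against 3.47% and 2.82% from counting. For miR-194b it was 46.6% in dermal papilla libraries, against 25.8% from counting, and 8.17% in hair matrix libraries, below the 17% from counting. For miR-194b-3p it was 18.9% in dermal papilla libraries, against 9.74% from counting, and 2.92% in hair matrix libraries, below the 8.67% from counting.

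Ratios of reads within a library do not depend on how libraries are scaled. miR-192 reads were 16.1, 19.5 and 16.7 times those of miR-215 in dermal papilla libraries, against 82.6, 90.0 and 64.6 times in hair matrix libraries. The ranges were far apart, with hair matrix replicate 3 the nearest to the dermal papilla libraries. In other terms, miR-215 reads were 5.77% ± 0.572 of miR-192 reads in dermal papilla cells, against 1.29% ± 0.228 in hair matrix cells (SD, n = 3 each). The log2 ratio of miR-192 to miR-215 differed by -2.17 ± 0.17 (SE) between dermal papilla and hair matrix cells on reads, and by -1.98 on log2(RPM + 1) values. This difference is the one by which the entries were chosen.

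miR-192 and miR-194 kept a similar proportion in both cell types. The ratio of miR-192 to miR-194 reads was 5.35, 5.84 and 6.06 in dermal papilla libraries, against 6.35, 6.41 and 6.31 in hair matrix libraries. All hair matrix libraries were above the dermal papilla libraries, by a small margin, and the log2 difference was -0.15 ± 0.053 (SE). miR-215 reads were 33.2%, 29.9% and 36.3% of miR-194 reads in dermal papilla libraries, against 7.69%, 7.13% and 9.76% in hair matrix libraries. Summed, miR-192 and miR-215, which offer one seed, were at 210 ± 11.3 RPM in dermal papilla cells, against 333 ± 16.1 RPM in hair matrix cells (SD, n = 3 each), 1.59-fold higher in hair matrix cells. The level of that seed thus lay close to the level of miR-192 alone in both cell types.

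**Figure D2:**
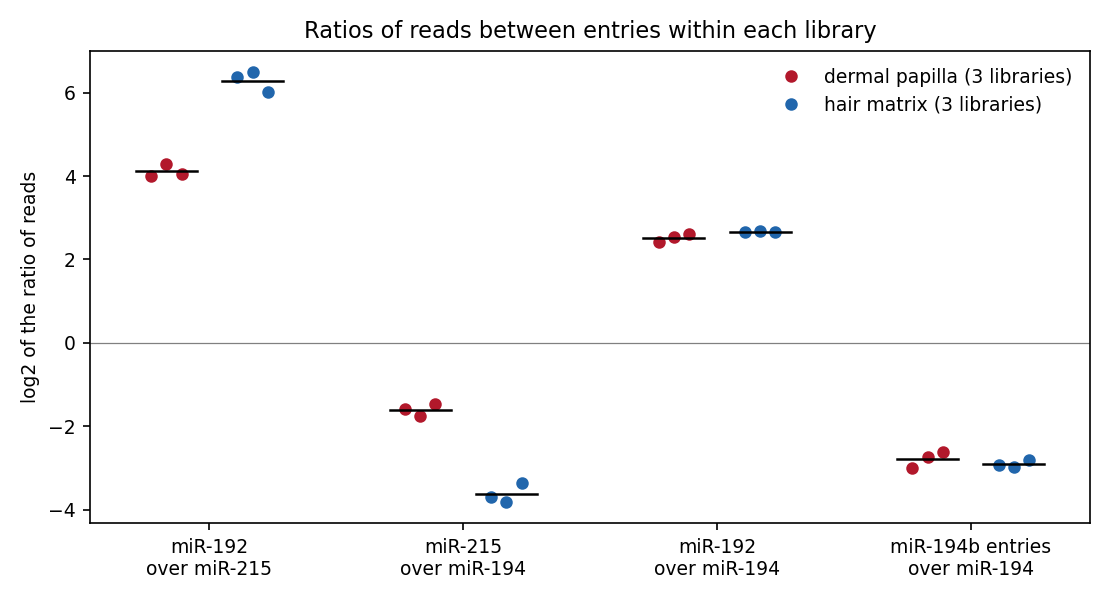
Log2 of the ratio of reads between member entries within each library (y axis) for 4 ratios (x axis), with dermal papilla libraries (red) left of hair matrix libraries (blue) and black lines at the means. The ratio of miR-192 to miR-215 differs by -2.17 between the cell types, that of miR-192 to miR-194 by -0.15, and the libraries overlap for the miR-194b entries over miR-194.

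The miR-194b entries made up a similar share of miR-194 in both cell types. Their summed reads were 12.5%, 14.9% and 16.2% of miR-194 reads in dermal papilla libraries, against 13.2%, 12.6% and 14.2% in hair matrix libraries, and these ranges overlapped. The means were 14.5% ± 1.88 in dermal papilla cells, against 13.3% ± 0.793 in hair matrix cells (SD, n = 3 each). Of mean RPM taken separately, miR-194b-3p was 12.7% of miR-194 in dermal papilla cells, against 10.6% in hair matrix cells, and miR-194b 1.81% in dermal papilla cells, against 2.75% in hair matrix cells.

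Complementary entries of this kind were not limited to miR-194. The table held 147 pairs of entries with at least 18 complementary bases in a row, of which 37 had cattle names for both. In 18 of the pairs with cattle names both entries reached 1 RPM in 3 or more of the 6 libraries, and some of these pairs share an entry. In 9 of the 18 the lower entry made up a percentage of the higher one that was within 1.5 times between the cell types, a limit chosen after the values were seen. The pair of miR-194b-3p and miR-194 was among the 9, and that of miR-194b and miR-194 was not. In every pair outside the limit the lower entry averaged 1.64 RPM or less over the 6 libraries. Within the limit every lower entry but miR-2284j (0.983 RPM) averaged at least 2.42 RPM. The split thus went largely with the level of the lower entry. Other pairs, named after their values were seen, were closer. miR-26c was at 30.4% of miR-26a in dermal papilla cells, against 30.3% in hair matrix cells, and miR-148c at 15.97% of miR-152 in dermal papilla cells, against 16.1% in hair matrix cells. miR-148d, which averaged only 0.898 RPM, was at 0.00316% of miR-148a in dermal papilla cells, against 0.0117% in hair matrix cells.

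**Figure D3:**
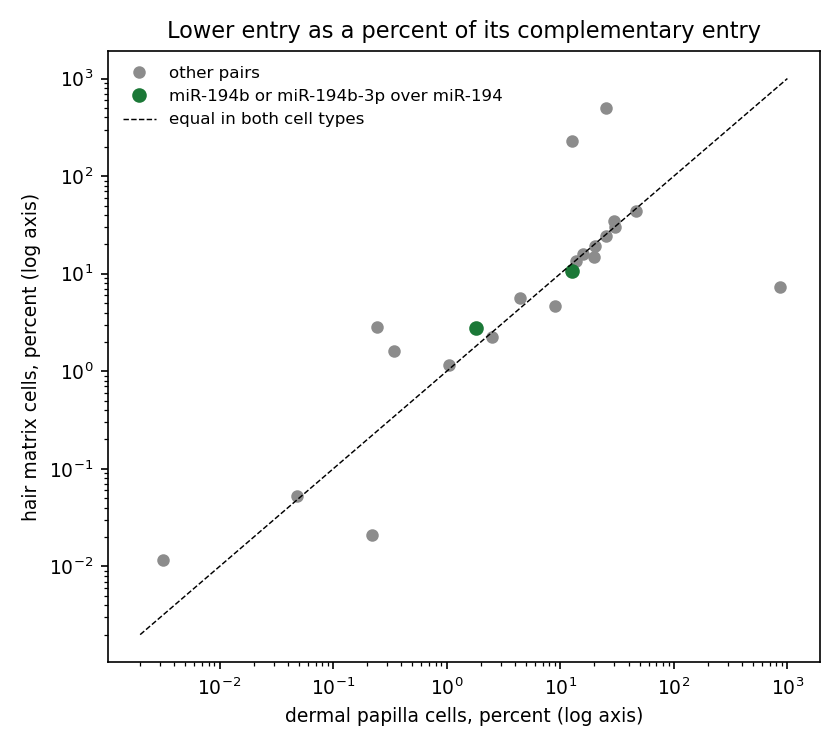
For pairs of entries with at least 18 complementary bases, the lower entry as a percent of the higher one (by mean RPM over all libraries) in dermal papilla cells (x axis) and hair matrix cells (y axis), both on log axes; 22 of the 25 pairs with both entries tested are drawn and 3 at 0% in a cell type are not. The pairs of miR-194 (green) with miR-194b-3p and miR-194b are at 12.7% and 1.81% in dermal papilla cells, against 10.6% and 2.75% in hair matrix cells. Of these, only the pair with miR-194b-3p is within 1.5 times of the dashed line of equal percentages.

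The members' differences can be placed among those of all entries, again as a description. Of the 2853 entries, 503 reached 1 RPM in 3 or more libraries of the 6 and were tested with limma on log2(RPM + 1) values. A call required a Benjamini-Hochberg adjusted p under 0.05 and at least 2-fold. By this rule 45.1% of tested entries were called, 25.2% with the higher level in dermal papilla cells and 19.9% with it in hair matrix cells. These were 127 and 100 entries. Median centring gave 109 and 137, and it moved the median log2 change of tested entries to -0.29, against -0.01 on the RPM scale. All 5 members passed the filter, miR-194b through hair matrix libraries only. The median absolute log2 change of tested entries was 0.89. A larger absolute change than that of miR-215 was found in 37.6% of tested entries, than that of miR-192 in 58.6%, than that of miR-194b in 64.6%, than that of miR-194 in 66.0% and than that of miR-194b-3p in 81.9%. Dermal papilla and hair matrix libraries did not overlap in 84.1% of tested entries and in 4 of the 5 members. For miR-194b no other outcome was possible, since it was tested only because all its hair matrix libraries, and no dermal papilla library, reached 1 RPM. miR-192 and miR-215 were chosen for their opposite differences, so the count of members is not compared with the 84.1%. The lack of overlap for miR-192, miR-215 and miR-194, in these directions, was also found after TMM scaling, median centring and quantile normalization. The libraries of miR-194b-3p overlapped on the RPM scale and after TMM scaling, but after median centring and after quantile normalization every dermal papilla library was below every hair matrix library.

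**Figure D4:**
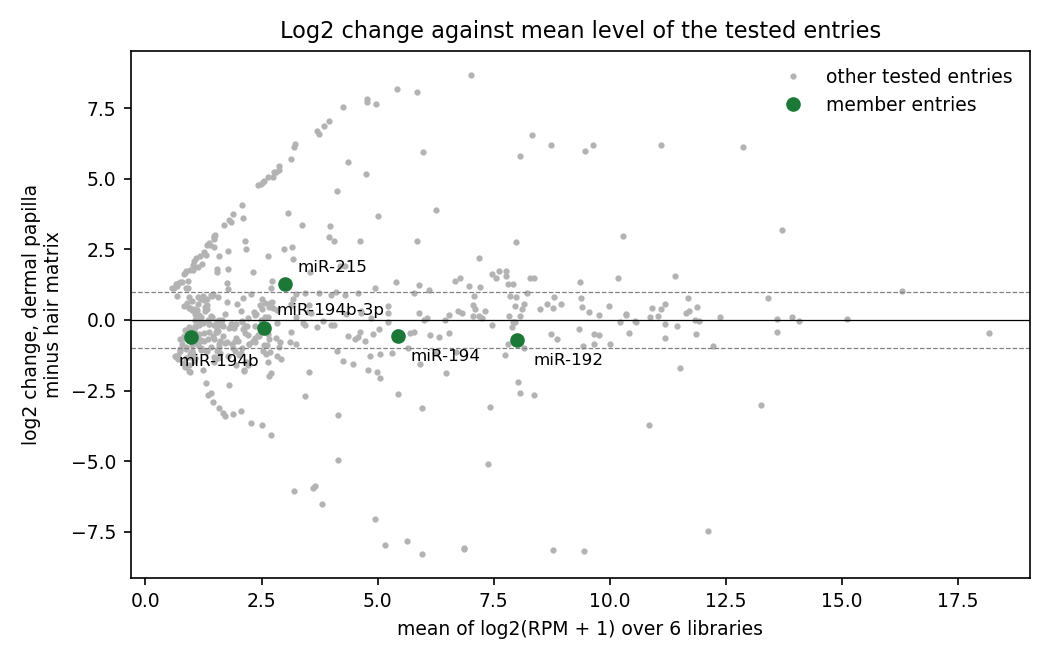
Log2 change, dermal papilla minus hair matrix (y axis), against the mean of log2(RPM + 1) over the 6 libraries (x axis) for the 503 tested entries, with the 5 members in green and dashed lines at 2-fold. miR-215 lies above the upper dashed line at 1.25, and the other members lie between 0 and the lower one. The added 1 exceeds the level of miR-194b in dermal papilla libraries, and by mean RPM miR-194b was 2.27-fold higher in hair matrix cells.

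Some families that share a seed held entries that differed in opposite directions. For scale, libraries did not overlap in 84.1% of all tested entries, and the log2 change was positive in 250 and negative in 253. Tested entries with cattle names formed 42 groups of at least 2 entries with the same bases 2 to 8, holding 129 entries. In 10 groups (23.8%) at least 1 entry had every dermal papilla library above every hair matrix library and at least 1 other had the reverse. That count was 10 after TMM scaling and 8 after median centring or quantile normalization. The group of miR-192 and miR-215 was among them under each of these scalings. This pair was chosen for its opposite directions, so its place among them, and the counts and ranks below, add nothing about the pair. Of the 25 groups of exactly 2 entries that of miR-192 and miR-215 was the only such group on the RPM scale, and after median centring it was 1 of 2. The spread of log2 change within a group had a median of 1.13. By spread miR-192 and miR-215, at 1.98, ranked 12 of 42, and 6 of the 25 groups of exactly 2 entries. The widest spread was 7.72, between miR-1271 and miR-96. The group of miR-34 and miR-449, with 5 entries and named after its values were seen, had calls in both directions, as did 2 groups of the cattle miR-2284 and miR-2285 family (limma).

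**Figure D5:**
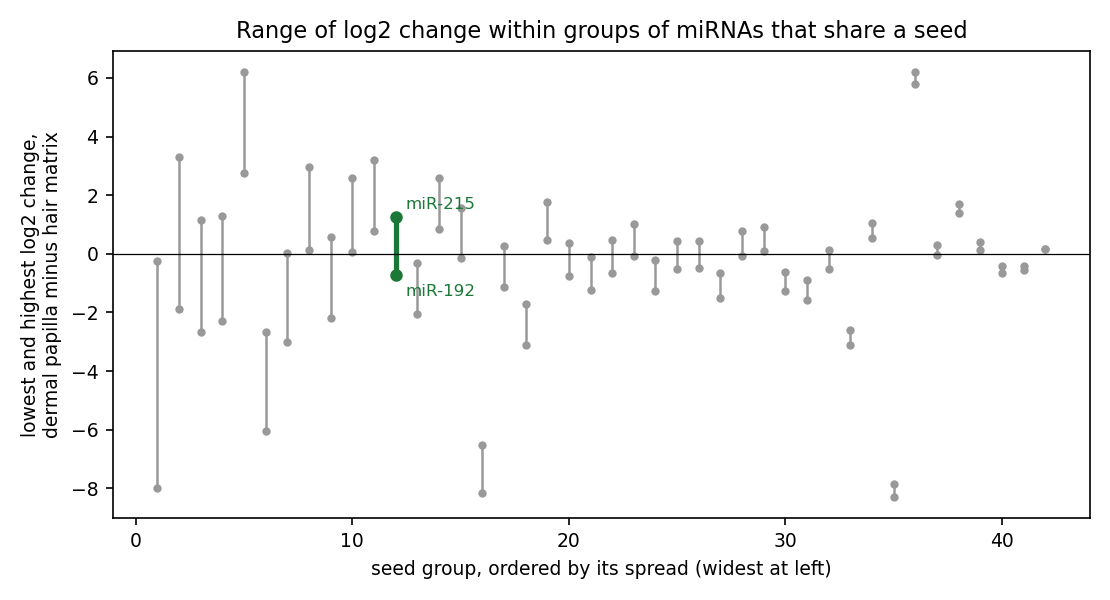
Lowest and highest log2 change, dermal papilla minus hair matrix (y axis), within each of 42 groups of tested cattle miRNAs with the same seed, ordered by spread (x axis, widest at left). The group of miR-215 and miR-192 (green) runs between 1.25 and -0.73 and ranks 12.

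The entries with the most similar pattern were found by the Euclidean distance over the 6 libraries between log2(RPM + 1) values centred on each entry's mean, among 220 other tested cattle miRNAs averaging at least 10 RPM. Nearest to miR-192 were miR-24, miR-23a and miR-2285bc, at distances of 0.12, 0.17 and 0.18. Nearest to miR-194 were miR-23a, miR-191 and miR-24, at 0.14, 0.18 and 0.19. Nearest to miR-215 were miR-296-3p, miR-365-5p and miR-2387, at 0.19, 0.22 and 0.27. miR-24 was at 31.5 ± 0.327 RPM in dermal papilla cells, against 51.5 ± 2.67 RPM in hair matrix cells, and miR-296-3p at 372 ± 27.6 RPM in dermal papilla cells, against 154 ± 11.1 RPM in hair matrix cells (SD, n = 3 each). For miR-194b the nearest were miR-2285aa, miR-6119-3p and miR-2285cs, and for miR-194b-3p they were miR-1271, miR-29a and miR-30e-5p.

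Other tested miRNAs known from liver, gut, kidney or pancreas were below miR-192 and miR-194 in both cell types. By mean level they were below miR-215 in dermal papilla cells, but in hair matrix cells miR-147 and miR-375 were above it. In dermal papilla replicate 2, however, miR-147 was at 10.7 RPM, above miR-215 at 9.73 RPM. Of 8 entries of a list for liver, gut, kidney and pancreas, 3 were tested, and limma called 0 with the higher level in dermal papilla cells, against 1 with it in hair matrix cells, where 25.2% and 19.9% of all tested entries were so called. With 3 entries tested, these counts do not set the list apart from the rest. edgeR and DESeq2, run on the recovered reads, gave the same counts, and in each of the 3 tools 1 entry with the higher level in dermal papilla cells and 1 with it in hair matrix cells had an unadjusted p under 0.05. The list had a median log2 change of -0.22 against -0.01 over all tested entries. miR-122, the most abundant miRNA of hepatocytes, was at 4.48, 2.26 and 3.22 RPM in dermal papilla libraries, against 3.60, 3.84 and 4.29 RPM in hair matrix libraries, and was not called (limma adjusted p = 0.314). miR-147 was at 9.67 ± 0.895 RPM in dermal papilla cells, against 6.21 ± 1.08 RPM in hair matrix cells (SD, n = 3 each), a change of under 2-fold (limma adjusted p = 0.00396). The called entry was miR-375, known from pancreatic islets and secretory epithelium, at 0.167 ± 0.111 RPM in dermal papilla cells, against 10.8 ± 1.75 RPM in hair matrix cells. It reached 1 RPM in hair matrix libraries only, so its direction follows from the filter.

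miRNAs linked to p53 in human cells were called about as often as tested entries in general. Of 8 tested entries of the list, 2 were called higher in dermal papilla cells, 2 higher in hair matrix cells and 4 were not called. Of all tested entries 25.2% and 19.9% were called in these directions. The list had a median log2 change of 0.28, against -0.01 over all tested entries. miR-34a, a direct p53 target in human cells, was at 47.5, 45.3 and 43.0 RPM in dermal papilla libraries, against 164, 173 and 176 RPM in hair matrix libraries (log2 change -1.90, limma adjusted p = 8.6e-08). Its relative miR-34c was at 1.78 ± 0.220 RPM in dermal papilla cells, against 5.29 ± 0.854 RPM in hair matrix cells (limma adjusted p = 6.21e-05). The entries higher in dermal papilla cells were miR-143 and miR-145, which are also markers of mesenchymal cells, with log2 changes of 6.10 and 6.56.

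All 6 miRNAs of the list of ZEB repressors, the miR-200 family and miR-205, were called higher in hair matrix cells, and their median log2 change was -7.99, against -0.01 over all tested entries. Of all tested entries 19.9% were called in that direction. The most abundant was miR-200c, at 40.2 ± 4.36 RPM in dermal papilla cells, against 11849 ± 226 RPM in hair matrix cells. miR-200a was at 25.2 ± 3.26 RPM in dermal papilla cells, against 7362 ± 195 RPM in hair matrix cells (SD, n = 3 each). By mean RPM the hair matrix level was 34.8-fold higher for miR-205, 290.1-fold for miR-141, 327-fold for miR-429 and 426-fold for miR-200b. Of these, miR-141 reached 1 RPM in hair matrix libraries only, so its direction follows from the filter. miR-192, which is linked to ZEB2 in human cells, differed in the same direction but by 1.66-fold. These epithelial markers moved with miR-192 and miR-194 between the cell types, as did the mesenchymal markers with miR-215, and their part in the members' differences was not tested.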

How the data were processed

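Small RNA was sequenced from 3 dermal papilla and 3 hair matrix libraries, made with a TruSeq small RNA kit per the labels' protocols. Trimmomatic, HISAT2 (2.2.1.0) and DESeq (1.20.0) are named, without roles, in the submitters' processing notes. Neither the genome build nor the miRNA reference, nor how multiply matching reads were counted, is given in the sources used here. The authors made and deposited values that they call TPM but that are RPM, reads scaled to a library total. Within 0.001 read, 100% of the values in every library are multiples of a single step, whatever the length of the entry, so whole reads and library totals were recovered.

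Entries that reached 1 RPM in 3 or more of 6 libraries were fitted with limma 3.58.1 in R 4.3.3 on log2(RPM + 1), with cell type as the only term, a mean trend in the variances and adjustment over all 503. edgeR 4.0.16 (TMM, quasi-likelihood) on recovered reads called 143 entries with the higher level in dermal papilla cells and 141 with it in hair matrix cells, and DESeq2 1.42.0 called 151 and 135. The fit was tested on simulated data. Depth was 23904796 to 24693655 reads, and intervals cover counting error only. Libraries that share a replicate number were not treated as pairs.

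Members and lists were chosen with earlier results of these data known. Named were all members, the 3 entries nearest to each member, and from each list the 2 most abundant tested entries and every called one. Other names are said to be chosen after their values were seen, or are markers or extremes of a described set. Alternatives were other pseudocounts, filters and scalings, edgeR and DESeq2, the replicate block, and dropping each library in turn while the tested entries stayed the same. Summing the miR-194b entries and leaving out complementary entries were added after seeing the data.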

Additional observations from a re-analysis of the deposited data

How the results depend on the processing

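Under the alternatives tried for each member, 14 or 15 per entry, none reversed direction. Many of them could not have done so. The replicate block leaves each estimate unchanged. For members whose libraries do not overlap, neither a dropped library nor another pseudocount can change the sign. The log2 change of miR-192 ranged between -1.10 and -0.66, that of miR-194 between -0.86 and -0.47, that of miR-215 between 0.59 and 1.51, that of miR-194b between -1.21 and -0.10 and that of miR-194b-3p between -0.55 and -0.11. miR-215 was under 2-fold with a pseudocount of 10 (0.59), after median centring (0.98) and after quantile normalization (0.87), miR-192 passed 2-fold after quantile normalization (-1.10), and miR-194b passed it on recovered reads with edgeR (-1.21) and DESeq2 (-1.12). With a pseudocount of 10 the log2 ratio of miR-192 to miR-215 differed by -1.29 between the cell types, and without any 1 library by -2.10 to -1.90. A pseudocount of 10 left 77 calls for higher levels in dermal papilla cells and 40 for higher levels in hair matrix cells, and a filter of 10 RPM left 80 and 47. Without any 1 library these were 125 to 128 and 100 to 104. Without entries complementary to another, 111 and 85 were called of 436 tested. The counts of called list entries were the same under the scalings tried, the block and without any 1 library.

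With the replicate number as a block 127 and 101 were called. Same-numbered libraries had correlations of their deviations of 0.14, 0.08 and -0.27, and those with different numbers between -0.43 and 0.39. So few values cannot settle whether the numbers pair the libraries. Depth limits the miR-194b entries, the lowest value of which rests on 7 reads.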
